A study of Mus musculus with 20 samples.

Results

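Amino acid transporters of the plasma membrane were followed in CFU-E, the committed red cell progenitors of mouse bone marrow, after red cell loss. The set holds 10 genes that were listed by symbol: Slc7a5, Slc3a2, Slc7a11, Slc7a1, Slc7a6, Slc38a1, Slc38a2, Slc1a4, Slc1a5 and Slc43a1. All 10 were found among the 37748 gene entries of the deposited table. An entry was tested where 5 or more of the 20 libraries had a value of 1 or higher, which held for 10890 entries and 9 of the 10 transporters. Slc7a11 did not reach it. Slc7a6 reached it through 12 libraries, of which 10 were PHZ libraries and 2 were P95H PBS libraries, so that its change after PHZ is partly set by the filter.

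The libraries fall into 4 groups of 5. Mice of the genotype Mx1-Cre Srsf2P95H/+, called P95H here, carry a heterozygous mutation in Srsf2, a gene for a splicing factor, together with the Mx1-Cre transgene, and they received PHZ or PBS. Mx1-Cre mice carry the same transgene without the mutation and received PHZ or PBS as well. PHZ (phenylhydrazine) damages haemoglobin and lyses circulating red cells, so that the marrow has to replace them. It was given under the skin on day 0 and again on day 1, each time at 30 mg/kg, PBS (buffered saline) replaced it in the other mice, and marrow was sorted on day 4. Live lineage-negative cells with high c-Kit and with CD105, but without Sca-1, CD41, CD16/32 and CD150, were taken as CFU-E. The Mx1 promoter responds to interferon and drives Cre in blood-forming cells and in other tissues; the labels used here state neither age nor sex of the mice nor when Cre was induced. Library names give every library a separate animal number, so the spread behind each p-value is that between single mice.

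Amino acids enter cells through solute carriers whose substrates overlap. Light chains of the Slc7 family, such as Slc7a5 (LAT1), Slc7a6 (y+LAT2) and Slc7a11 (xCT), form exchangers with the heavy chain Slc3a2 (4F2hc, also called CD98), which carries them to the cell surface. Sodium-coupled carriers load the cell with small neutral amino acids and glutamine, and exchangers then trade part of that pool for leucine and other essential amino acids, whose supply is read by the kinase complex mTORC1. Red cell precursors need amino acids for globin synthesis, and Slc43a1 (LAT3), a facilitator for leucine and related amino acids, is known from mouse and zebrafish work to serve haemoglobin production.

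The cells carried erythroid markers: all 14 were measured in every group, among them the transcription factors Gata1 and Klf1 with means of 203 and 319 in P95H PHZ. After PHZ 3 of the 14 were called higher and 5 lower in P95H at an adjusted p under 0.05 in limma, and 3 higher and 3 lower in Mx1-Cre. Over all tested genes, 12.6% were called higher and 17.7% lower in P95H, and 17.0% higher and 14.9% lower in Mx1-Cre. Tfrc, the transferrin receptor gene, averaged 697 ± 18.5 in P95H PHZ and 421 ± 84.2 in P95H PBS, and 682 ± 73.0 in Mx1-Cre PHZ and 366 ± 37.7 in Mx1-Cre PBS (SD, n = 5 each). Kit, whose surface protein was used in the sort, averaged 51.9 ± 12.9 in P95H PHZ and 87.7 ± 13.1 in P95H PBS, and 60.6 ± 5.72 in Mx1-Cre PHZ and 108 ± 27.5 in Mx1-Cre PBS. The part of these marker differences in the transporter results was not tested.

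Granulocyte and monocyte markers were present at levels from low to high and differed with PHZ. S100a9 averaged 116 in P95H PHZ and 472 in P95H PBS, and 145 in Mx1-Cre PHZ and 215 in Mx1-Cre PBS. Csf1r averaged 0.135, 0.310, 0.108 and 0.162 in the same groups. The sum of the 18 marker genes had a lowest, median and highest value of 162, 397 and 607 in P95H PHZ and of 574, 1455 and 2514 in P95H PBS. It was 154, 199.97 and 1094 in Mx1-Cre PHZ and 462, 641 and 970 in Mx1-Cre PBS. Of 17 of these genes that could be tested, 17 were lower after PHZ in P95H and 1 in Mx1-Cre. Lower calls made up 17.7% of all tested genes in P95H and 14.9% in Mx1-Cre. Macrophage markers summed to at most 3.92 per library, and 1 of 8 was tested and not called. Lymphoid markers summed to at most 0.471 in P95H PHZ and 9.88 in P95H PBS, and to at most 0.980 in Mx1-Cre PHZ and 2.94 in Mx1-Cre PBS, and the 1 of 10 tested was lower after PHZ in both genotypes. Of 4 tested megakaryocyte markers, 2 were lower in P95H and 3 in Mx1-Cre, the 1 tested marker of mast cells and basophils was higher in both, and of 2 tested genes of surface proteins that the sort excluded, 1 was lower in both. Ncr1 of natural killer cells and Tpsb2 of mast cells were listed at 0 in every library. Of the single tested markers, lymphoid Cd79a passed the filter through PBS libraries only, and Il4 of mast cells and basophils mainly through PHZ libraries. Cebpe and Csf3r, among the granulocyte and monocyte markers, passed it mainly through PBS libraries. Those of the 10 transporters whose call ended once the granulocyte and monocyte mean entered the fit are named with their results. For genes outside the 10, only some counts under that fit are given. The part of the other markers was not tested. In RNA from sorted cells in bulk, fewer cells of a type and less RNA per cell cannot be told apart.

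Promoters of 4 transporters with different behaviour are shown: Slc1a4 and Slc7a6, which were higher after PHZ in both genotypes, Slc43a1, which was not called higher in either, and Slc7a11, which was close to 0. They are RefSeq windows on GRCm38.p6 that run from 250 bases before to 50 bases after the annotated start, printed 5′ to 3′ in the direction of the gene. Capitals mark motifs that were searched on both strands by exact letters: TGATGNAA, a shortened form of the element bound by ATF4 with C/EBP factors, TGACNNNGC, the NRF2 antioxidant response element, CACGTG, the MYC E-box, AGATAA, the core site of GATA factors, and TTCNNNGAA, a STAT site. No motif overlapped another in these windows.
Slc1a4, chr11:20332664-20332963, minus strand: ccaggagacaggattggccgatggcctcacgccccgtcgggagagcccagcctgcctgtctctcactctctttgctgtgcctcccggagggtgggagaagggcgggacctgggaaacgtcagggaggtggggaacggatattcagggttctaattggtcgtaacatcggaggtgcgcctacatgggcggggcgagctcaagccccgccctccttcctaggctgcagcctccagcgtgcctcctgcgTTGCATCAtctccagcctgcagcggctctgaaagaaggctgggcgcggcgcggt
Slc7a11, chr3:50443564-50443863, minus strand: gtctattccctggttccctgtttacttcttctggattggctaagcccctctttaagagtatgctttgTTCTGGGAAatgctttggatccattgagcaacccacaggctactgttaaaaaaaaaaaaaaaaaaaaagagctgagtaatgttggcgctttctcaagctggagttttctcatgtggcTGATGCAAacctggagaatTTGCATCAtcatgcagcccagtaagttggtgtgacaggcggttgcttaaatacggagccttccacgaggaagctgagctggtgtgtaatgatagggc
Slc7a6, chr8:106168604-106168903, plus strand: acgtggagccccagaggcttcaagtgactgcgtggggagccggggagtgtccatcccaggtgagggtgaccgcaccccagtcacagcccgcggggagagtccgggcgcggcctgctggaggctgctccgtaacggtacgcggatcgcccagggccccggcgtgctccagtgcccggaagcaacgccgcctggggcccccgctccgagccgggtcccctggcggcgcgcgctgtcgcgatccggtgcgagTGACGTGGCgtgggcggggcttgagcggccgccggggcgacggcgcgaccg
Slc43a1, chr2:84840073-84840372, plus strand: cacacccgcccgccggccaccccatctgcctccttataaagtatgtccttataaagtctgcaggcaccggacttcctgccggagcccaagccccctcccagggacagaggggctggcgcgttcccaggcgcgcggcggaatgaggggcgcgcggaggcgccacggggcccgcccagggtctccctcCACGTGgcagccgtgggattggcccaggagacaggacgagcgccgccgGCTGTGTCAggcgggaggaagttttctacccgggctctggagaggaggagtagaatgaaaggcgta

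Slc1a4 held 1 copy of the shortened ATF4 element, on the reverse strand at position -4 from the start. The Slc7a11 window held 2 copies, at -66 and on the reverse strand at -47, and a STAT match at -183. Slc7a6 held an NRF2 match at -1, which lies at -68 in the second Slc7a6 window of the table, and Slc43a1 held a MYC E-box at -64 and an NRF2 match at -16. The full ATF4 element, TGATGNAAT, occurs in 0.965% of 32851 promoter windows of this length and in none of the 9 windows that matched 7 of the 10 transporters. The shortened form, searched after the full one had given no match, occurs in 3.969% of windows, the NRF2 letters in 12.39%, the E-box in 7.15%, the GATA letters in 11.18% and the STAT letters in 8.298%. Among the other matched windows, Slc38a2 and the first of the Slc7a1 windows held NRF2 matches, the second Slc7a1 window a STAT match, and Slc3a2 none. Slc7a5, Slc38a1 and Slc1a5 had no window in the table. The windows differ in base composition: G and C make up 75.7% of the Slc7a6 window, 67.7% of the Slc43a1 window, 65% of the Slc1a4 window and 44.7% of the Slc7a11 window, against a median of 52.7% over all windows. A match of letters is a description of the sequence and does not show binding.

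PHZ was compared with PBS within each genotype to ask which transporters change in CFU-E when red cells must be replaced. In P95H, Slc7a5, Slc7a1, Slc7a6, Slc38a1, Slc1a4 and Slc1a5 rose, which is 6 of the 10 transporters, against 12.6% of all tested genes called higher in that comparison. In Mx1-Cre, the same 6 genes and also Slc3a2 and Slc38a2 rose, which is 8 of 10, against 17.0% of all tested genes. No transporter fell in either genotype, against 17.7% of tested genes called lower in P95H and 14.9% in Mx1-Cre. The 10 genes and the further gene lists were chosen with earlier results of these data known. Their counts and medians beside those of all genes are therefore descriptions and do not test for an excess. Slc7a6, counted here, passed the filter mainly through its PHZ libraries. The changes were moderate: apart from Slc7a6, the log2 fold changes of called transporters lay between 0.20 and 0.76. The summed level of all 10 was 824 ± 49.1 in P95H PHZ and 659 ± 36.2 in P95H PBS, and 871 ± 53.8 in Mx1-Cre PHZ and 672 ± 68.2 in Mx1-Cre PBS (SD, n = 5 each). A gene was called when its adjusted p in limma was under 0.05 over all 10890 tested genes, and fold changes are differences of log2(value + 1), a scale that understates the change of low genes. The median log2 fold change over all tested genes was -0.015 in P95H and -0.0015 in Mx1-Cre, and that of the 9 tested transporters was 0.52 and 0.64. Over all tested genes, 1371 were higher and 1923 lower in P95H and 1856 higher and 1618 lower in Mx1-Cre; with the authors' library factor divided out these splits were 2584 higher and 1108 lower in P95H and 2237 higher and 1216 lower in Mx1-Cre, and 8 of the 10 transporters were called higher in each genotype.

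**Figure D1:**
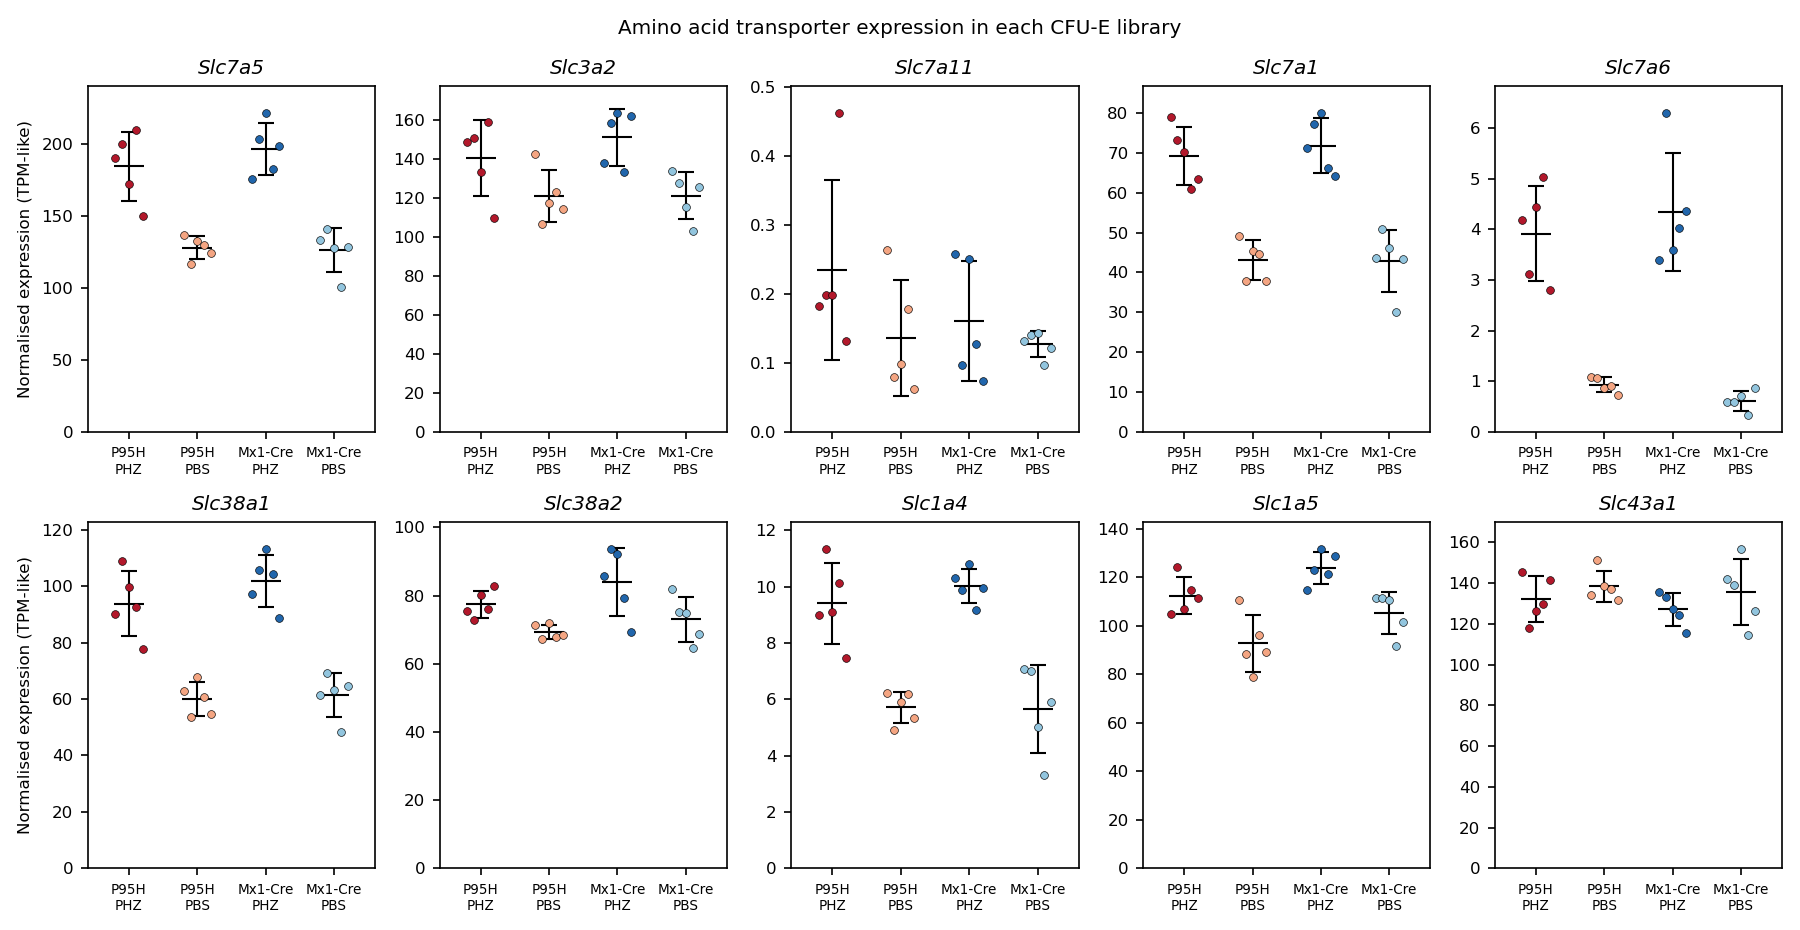
Normalised expression (TPM-like units, linear axes from 0) of the 10 transporters in each of 20 CFU-E libraries; points are libraries, and bars are the group mean and SD (n = 5). Slc7a5, Slc7a1, Slc7a6, Slc38a1 and Slc1a4 have every PHZ library above every PBS library of the same genotype, Slc43a1 does not, and Slc7a11 stays under 0.5 throughout.

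Slc7a5, the LAT1 light chain that imports leucine and other large neutral amino acids, was the most abundant transporter after PHZ. Its values were 190.5, 199.99, 172, 209.8 and 149.9 in the P95H PHZ libraries, against 137, 116, 133, 130.1 and 124 in the P95H PBS libraries. They were 176, 204, 222, 182 and 198 in the Mx1-Cre PHZ libraries, against 133, 141, 128, 100.4 and 128 in the Mx1-Cre PBS libraries. Every PHZ library lay above every PBS library of its genotype, a separation with PHZ higher that 7.59% of tested genes showed in P95H and 12.6% in Mx1-Cre. The means were 184 ± 23.8 in P95H PHZ and 128 ± 7.89 in P95H PBS (a log2 change of 0.52 with SE 0.0907 and adjusted p = 2.02e-04). In Mx1-Cre they were 196 ± 18.1 after PHZ and 126 ± 15.3 after PBS (a log2 change of 0.64 with SE 0.0907 and adjusted p = 2.28e-05). Slc7a5 lies on chromosome 8, 121881150 to 121907694 (GRCm38, minus strand), where the annotation also places the predicted gene Gm20388 on the opposite strand, and no source used here says whether counting used strand.

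Slc3a2, the heavy chain that these light chains need at the surface, moved less than Slc7a5. It had values of 149, 151, 133, 159 and 109.6 in P95H PHZ, against 142, 107, 117, 123 and 114 in P95H PBS, where 3 of 5 PHZ libraries exceeded all PBS libraries. The difference in P95H was not called (a log2 change of 0.21 with SE 0.0959 and adjusted p = 0.105); it was called once P95H PBS replicate 1 or P95H PHZ replicate 5 was left out (adjusted p = 0.0412 and 0.0130) and once the authors' library factor was divided out (adjusted p = 0.0110). In Mx1-Cre PHZ the values were 138, 158, 164, 133 and 162, against 134, 128, 115, 103 and 126 in Mx1-Cre PBS, and 4 of 5 PHZ libraries exceeded all PBS libraries. There Slc3a2 rose (a log2 change of 0.32 with SE 0.0959 and adjusted p = 0.0152), a call that ended without Mx1-Cre PBS replicate 4 (adjusted p = 0.0556) and with the granulocyte and monocyte marker mean in the fit (log2 fold change 0.27, SE 0.109, adjusted p = 0.0757).

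The ratio of light to heavy chain, Slc7a5 over Slc3a2 within a library, does not depend on how libraries were scaled. It was 1.28, 1.33, 1.29, 1.32 and 1.37 in the P95H PHZ libraries, against 0.959, 1.09, 1.13, 1.06 and 1.09 in the P95H PBS libraries. In the Mx1-Cre PHZ libraries it was 1.28, 1.29, 1.35, 1.37 and 1.23, against 0.998, 1.10, 1.11, 0.973 and 1.02 in the Mx1-Cre PBS libraries. The lowest of the 10 PHZ ratios was above the highest of the 10 PBS ratios. Means were 1.32 ± 0.0352 in P95H PHZ and 1.06 ± 0.0637 in P95H PBS, and 1.30 ± 0.0598 in Mx1-Cre PHZ and 1.04 ± 0.0617 in Mx1-Cre PBS (SD, n = 5 each). The ratio is given as a description of unequal change, since both genes belong to the set.

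**Figure D2:**
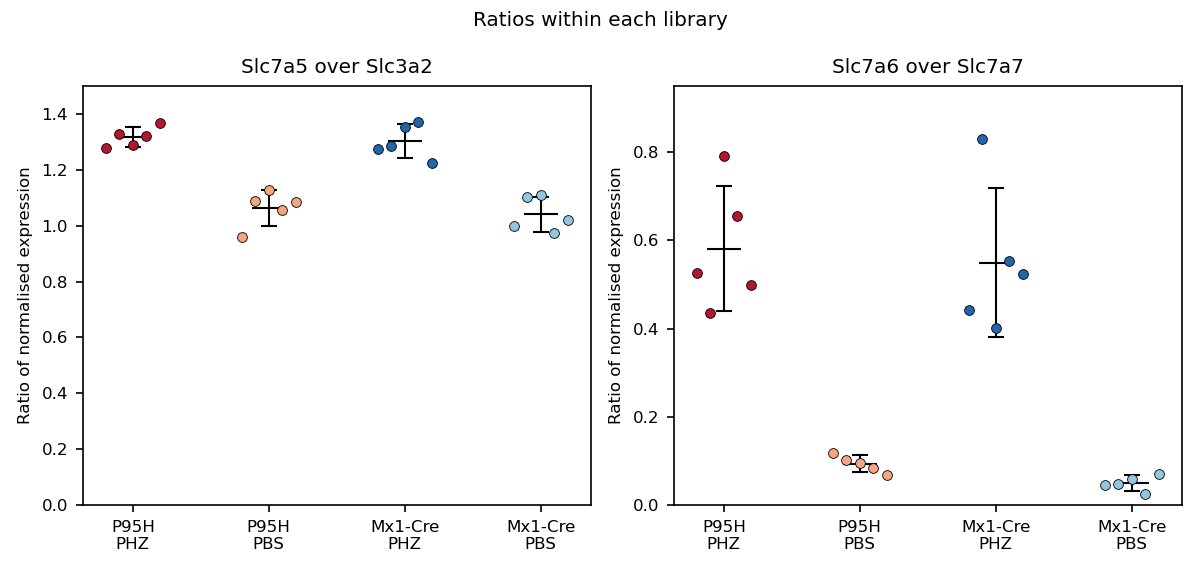
Left, ratio of Slc7a5 to Slc3a2, and right, ratio of Slc7a6 to Slc7a7, in each library (linear axes from 0; points are libraries, bars the group mean and SD, n = 5). The 10 PHZ libraries lie between 1.23 and 1.37 for Slc7a5 over Slc3a2 and the 10 PBS libraries between 0.959 and 1.13; for Slc7a6 over Slc7a7 the PHZ means are 0.581 and 0.550 and the PBS means 0.0933 and 0.0498.

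Slc7a6, the y+LAT2 light chain that exchanges arginine and other cationic amino acids against neutral ones, showed the largest fold change of the set at a low level. It was 4.19, 3.12, 4.44, 5.03 and 2.79 in P95H PHZ, against 1.08, 1.07, 0.867, 0.912 and 0.727 in P95H PBS. The Mx1-Cre PHZ libraries had 3.40, 6.31, 3.58, 4.02 and 4.36, against 0.587, 0.594, 0.698, 0.324 and 0.862 in Mx1-Cre PBS. PHZ and PBS libraries did not overlap in either genotype, and the lowest PHZ value of all was 2.79, against a highest PBS value of 1.08. Slc7a6 rose in P95H (a log2 change of 1.33 with SE 0.138 and adjusted p = 4.15e-07) and in Mx1-Cre (a log2 change of 1.71 with SE 0.138 and adjusted p = 1.27e-08). Because it passed the filter mainly through its PHZ libraries, its change and the lack of overlap are partly set by the filter. The ratio of group means was 4.20 in P95H and 7.07 in Mx1-Cre, and the log2 fold change ran from 0.58 to 1.94 and from 0.73 to 2.65 over the alternatives, with the ends set by the pseudocount.

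Slc7a7, the related y+LAT1 light chain, went the other way. It was not a member of the set and was set beside Slc7a6 after its values were seen. Slc7a7 averaged 6.80 ± 1.13 in P95H PHZ and 10.1 ± 0.912 in P95H PBS (a log2 change of -0.52 with SE 0.0882 and adjusted p = 1.47e-04), and 7.97 ± 0.668 in Mx1-Cre PHZ and 12.4 ± 0.568 in Mx1-Cre PBS (a log2 change of -0.59 with SE 0.0882 and adjusted p = 4.37e-05). The ratio of Slc7a6 to Slc7a7 averaged 0.581 ± 0.142 in P95H PHZ and 0.0933 ± 0.0193 in P95H PBS, and 0.550 ± 0.168 in Mx1-Cre PHZ and 0.0498 ± 0.0173 in Mx1-Cre PBS (SD, n = 5 each). Slc7a7 remained the more abundant of the pair in every library.

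Slc7a11, the xCT light chain that imports cystine in exchange for glutamate, stayed close to 0. The libraries had 0.183, 0.198, 0.197, 0.462 and 0.132 in P95H PHZ, against 0.263, 0.0787, 0.0985, 0.178 and 0.0614 in P95H PBS. They had 0.258, 0.0964, 0.250, 0.127 and 0.0730 in Mx1-Cre PHZ, against 0.132, 0.141, 0.144, 0.0971 and 0.122 in Mx1-Cre PBS. No library reached 1, the groups overlap, and Slc7a11 was not tested.

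Slc7a1, the cationic amino acid transporter CAT1, which carries arginine and lysine without a heavy chain and whose loss in mice causes anaemia, rose in both genotypes. Its values were 78.9, 73.3, 70.1, 61.0 and 63.4 in P95H PHZ, against 49.2, 37.8, 45.4, 44.7 and 37.9 in P95H PBS. In Mx1-Cre PHZ they were 71.2, 77.4, 80.1, 66.3 and 64.3, against 43.5, 51.0, 46.2, 30.1 and 43.3 in Mx1-Cre PBS. No PBS library reached the lowest PHZ library of its genotype. The increase was 0.68 on the log2 scale in P95H (SE 0.110, adjusted p = 9.89e-05) and 0.75 in Mx1-Cre (SE 0.110, adjusted p = 3.95e-05).

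Slc38a1 and Slc38a2 are sodium-coupled carriers of glutamine, alanine and other neutral amino acids (SNAT1 and SNAT2). Slc38a1 had values of 90.0, 109, 99.7, 92.6 and 77.8 in P95H PHZ, against 63.0, 53.5, 67.8, 60.7 and 54.8 in P95H PBS, and it rose there (a log2 change of 0.63 with SE 0.0948 and adjusted p = 3.75e-05). Slc38a1 values in Mx1-Cre PHZ were 97.3, 106, 113, 104 and 88.7, against 61.3, 69.2, 63.3, 48.3 and 64.8 in Mx1-Cre PBS, and it rose there too (a log2 change of 0.73 with SE 0.0948 and adjusted p = 8.66e-06). Neither pair of groups overlapped. Slc38a2, which cells are known to induce when amino acids run short, differed less, with 75.6, 72.8, 80.3, 76.2 and 82.8 in P95H PHZ, against 71.4, 67.4, 71.9, 68.0 and 68.4 in P95H PBS. Those groups did not overlap either, yet the difference was not called (a log2 change of 0.16 with SE 0.0715 and adjusted p = 0.103); it was called with the authors' library factor divided out (adjusted p = 0.0216) and when the P95H libraries were fitted alone (adjusted p = 0.0419). In Mx1-Cre PHZ Slc38a2 was at 85.8, 93.7, 92.2, 79.4 and 69.4, against 81.85, 75.2, 74.8, 64.6 and 68.6 in Mx1-Cre PBS, with 3 of 5 PHZ libraries above all PBS libraries. Its call in Mx1-Cre (a log2 change of 0.20 with SE 0.0715 and adjusted p = 0.0386) ended under 10 alternatives with adjusted p between 0.0525 and 0.238, among them TMM scaling, quantile normalization and leaving out any of 5 single libraries. The largest of these p-values came with the granulocyte and monocyte marker mean in the fit, where the log2 fold change was 0.13 (SE 0.0750).

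Slc1a4 and Slc1a5 are the ASCT1 and ASCT2 exchangers of small neutral amino acids, and Slc1a5 also carries glutamine. Slc1a4 was at 8.99, 11.3, 9.12, 10.1 and 7.48 in P95H PHZ, against 6.22, 4.93, 5.89, 6.19 and 5.33 in P95H PBS, without overlap. It was at 10.3, 9.89, 10.8, 9.19 and 9.96 in Mx1-Cre PHZ, against 7.07, 7.03, 5.01, 3.30 and 5.89 in Mx1-Cre PBS, again without overlap. Slc1a4 rose by 0.63 in P95H (SE 0.132, adjusted p = 0.0011) and by 0.76 in Mx1-Cre (SE 0.132, adjusted p = 1.87e-04) on the log2 scale; with the granulocyte and monocyte marker mean in the fit the call in P95H ended (log2 fold change 0.46, SE 0.184, adjusted p = 0.125).

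Slc1a5 was far more abundant than Slc1a4 and changed less. Its libraries had 105, 124, 107, 115 and 111 in P95H PHZ, against 111, 88.5, 79.0, 96.1 and 89.3 in P95H PBS, where P95H PBS replicate 1 overlapped the PHZ range. They had 115, 123, 132, 121 and 129 in Mx1-Cre PHZ, against 111, 111, 110.5, 91.5 and 102 in Mx1-Cre PBS, with all 5 PHZ libraries higher. The rise was called in P95H (a log2 change of 0.28 with SE 0.0748 and adjusted p = 0.00667) and in Mx1-Cre (a log2 change of 0.24 with SE 0.0748 and adjusted p = 0.0198). With the granulocyte and monocyte marker mean in the fit both calls ended, at a log2 fold change of 0.21 in P95H (SE 0.106, adjusted p = 0.246) and 0.20 in Mx1-Cre (SE 0.0841, adjusted p = 0.0956). The call in Mx1-Cre also ended under quantile normalization (0.0619) and when Mx1-Cre PHZ replicate 3 (0.0551) or Mx1-Cre PBS replicate 4 (0.0707) was left out.

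Slc43a1, the LAT3 facilitator linked to haemoglobin production, was the one tested transporter called in neither genotype. It had 145, 118, 127, 129.9 and 142 in P95H PHZ, against 134, 151, 139, 137 and 132 in P95H PBS. Mx1-Cre PHZ libraries had 136, 133, 127, 124 and 115, against 142, 139, 157, 114 and 126 in Mx1-Cre PBS. The ranges overlapped in both genotypes. The log2 fold change was -0.07 in P95H (95% interval -0.22 to 0.08, adjusted p = 0.51) and -0.09 in Mx1-Cre (95% interval -0.24 to 0.07, adjusted p = 0.394), so the intervals leave out an increase as large as that of Slc7a5. With library weights Slc43a1 was called lower in Mx1-Cre (adjusted p = 0.0334).

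**Figure D3:**
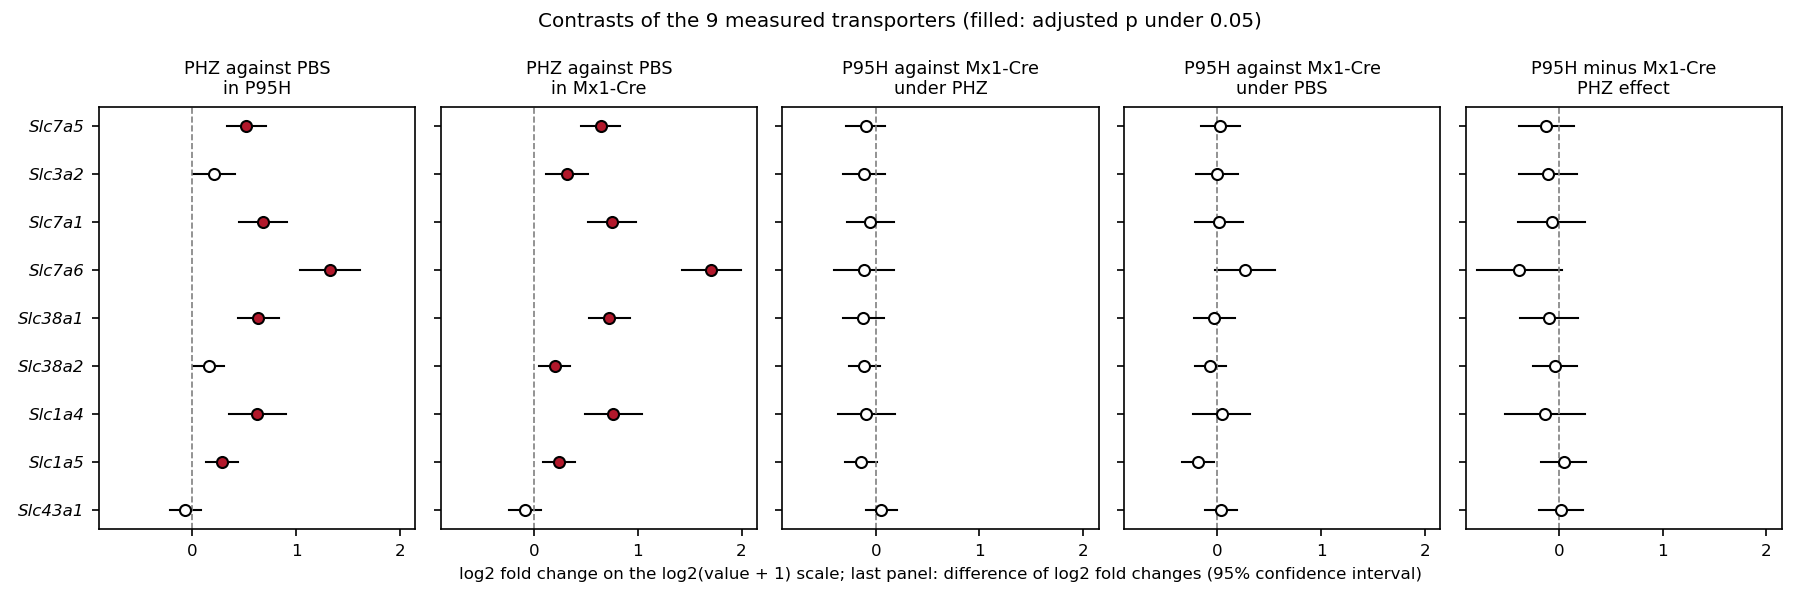
Log2 fold changes on the log2(value + 1) scale with 95% confidence intervals for the 9 tested transporters in 4 comparisons and, at the right, the P95H minus Mx1-Cre difference of the PHZ effects; filled points passed an adjusted p of 0.05 in limma. PHZ against PBS has 6 filled points in P95H and 8 in Mx1-Cre, and the genotype comparisons and the difference have 0.

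The order of levels changed with PHZ. The values are TPM-like, scaled per length, so levels can be set side by side between genes. Slc7a5 led in both PHZ groups, at 22.3% of the summed level of the 10 genes in P95H PHZ and 22.5% in Mx1-Cre PHZ. Slc43a1 led in both PBS groups, at 21.1% in P95H PBS and 20.2% in Mx1-Cre PBS. Slc7a5 was above Slc43a1 in 5 of 5 P95H PHZ libraries and 1 of 5 P95H PBS libraries, and in 5 of 5 Mx1-Cre PHZ libraries and 2 of 5 Mx1-Cre PBS libraries. After PHZ the order of means in both genotypes was Slc7a5, Slc3a2, Slc43a1, Slc1a5, Slc38a1, Slc38a2, Slc7a1, Slc1a4, Slc7a6 and Slc7a11. After PBS it was Slc43a1, Slc7a5, Slc3a2, Slc1a5, Slc38a2, Slc38a1, Slc7a1, Slc1a4, Slc7a6 and Slc7a11 in both. From Slc7a1 down, the ranges of neighbours did not touch in any group. Higher in the order most neighbours overlapped, for example Slc43a1 and Slc7a5 in both PBS groups. Neighbours that stood apart were Slc7a5 over Slc3a2 and Slc1a5 over Slc38a1 in Mx1-Cre PHZ, Slc1a5 over Slc38a2 in both PBS groups, and Slc38a1 over Slc7a1 in P95H PBS.

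P95H was compared with Mx1-Cre under each treatment to ask whether the mutation alters the transporters. Under PHZ, 0 of the 9 tested transporters were called, against 5.47% of all tested genes (1.1% higher and 4.37% lower), and 0 reached an unadjusted p under 0.05 in limma. Log2 fold changes lay between -0.14 for Slc1a5 and 0.05 for Slc43a1, around a median of -0.11, against -0.054 for all tested genes; with the authors' library factor divided out the median of the 9 was -0.05. The smallest adjusted p was 0.281, for Slc1a5, which averaged 112 ± 7.54 in P95H PHZ and 124 ± 6.65 in Mx1-Cre PHZ (log2 fold change -0.14, 95% interval -0.30 to 0.01). For Slc7a5 the means were 184 ± 23.8 in P95H PHZ and 196 ± 18.1 in Mx1-Cre PHZ (log2 fold change -0.10, 95% interval -0.28 to 0.09, adjusted p = 0.587).

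Under PBS, 0 of 9 were called as well, against 1.48% of all tested genes (0.358% higher and 1.12% lower), and 1 had an unadjusted p under 0.05. That was Slc1a5, which had 111, 88.5, 79.0, 96.1 and 89.3 in P95H PBS, against 111, 111, 110.5, 91.5 and 102 in Mx1-Cre PBS. Of the 5 P95H libraries, 3 lay under the whole Mx1-Cre range. The log2 fold change was -0.19 (95% interval -0.34 to -0.03, unadjusted p = 0.0212, adjusted p = 0.252), and it was called with library weights (adjusted p = 0.0266). Slc7a6 averaged 0.932 ± 0.150 in P95H PBS and 0.613 ± 0.196 in Mx1-Cre PBS, with 4 of 5 P95H libraries above all Mx1-Cre libraries, and was not called (log2 fold change 0.27, 95% interval -0.02 to 0.55, adjusted p = 0.397). The remaining transporters had log2 fold changes between -0.07 and 0.04.

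The PHZ effects of the 2 genotypes were then compared directly. By this difference 0 transporters and 0 of all 10890 genes were called (0.0%), with an unadjusted p under 0.05 for 0 transporters and 577 genes and a lowest adjusted p of 0.798. For Slc7a6 the P95H effect was estimated below the Mx1-Cre effect (difference -0.38, 95% interval -0.79 to 0.02, adjusted p = 0.798). For Slc7a5 the difference was -0.12 (-0.39 to 0.14), for Slc3a2 -0.11 (-0.39 to 0.17) and for Slc38a2 -0.04 (-0.25 to 0.17). So the calls of Slc3a2 and Slc38a2 in Mx1-Cre alone do not show that their response to PHZ differs between genotypes. Srsf2 itself averaged 586 ± 20.2 in P95H PHZ and 685 ± 35.6 in Mx1-Cre PHZ (adjusted p = 0.0188), a level that does not check the mutation.

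Other plasma membrane transporters of amino acids did not share a direction. Of 34 further genes, 8 could be tested. In P95H 3 rose and 3 fell after PHZ, in Mx1-Cre 2 rose and 3 fell, and the median log2 fold change was -0.14 in each. Among all tested genes, 12.6% were called higher and 17.7% lower in P95H, and 17.0% higher and 14.9% lower in Mx1-Cre. Slc6a6, a taurine carrier, rose by 0.32 in P95H and 0.40 in Mx1-Cre, and Slc43a2, the LAT4 facilitator, rose by 0.30 and 0.32 at levels near 1. Slc43a2 passed the filter mainly through PHZ libraries. Slc6a9, the glycine carrier GlyT1 known to supply haem synthesis, averaged 10.4 ± 3.43 in P95H PHZ and 6.88 ± 0.693 in P95H PBS (a log2 change of 0.49 with SE 0.164 and adjusted p = 0.0276). In Mx1-Cre it averaged 9.33 ± 1.35 after PHZ and 7.18 ± 1.74 after PBS, which was not called (a log2 change of 0.35 with SE 0.164 and adjusted p = 0.105). Slc38a5, a glutamine carrier whose mean was above those of all 10 transporters in both PBS groups, went against its relative Slc38a1. It fell to 139.6 ± 16.6 in P95H PHZ, against 179 ± 8.02 in P95H PBS (a log2 change of -0.36 with SE 0.0799 and adjusted p = 0.00167), and to 142 ± 10.3 in Mx1-Cre PHZ, against 166 ± 18.5 in Mx1-Cre PBS (a log2 change of -0.22 with SE 0.0799 and adjusted p = 0.0355). Slc6a20a, a proline carrier, fell by 0.63 in P95H and by 1.22 in Mx1-Cre. With the granulocyte and monocyte marker mean in the fit, 0 of the 8 were higher and 2 lower in P95H.

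**Figure D4:**
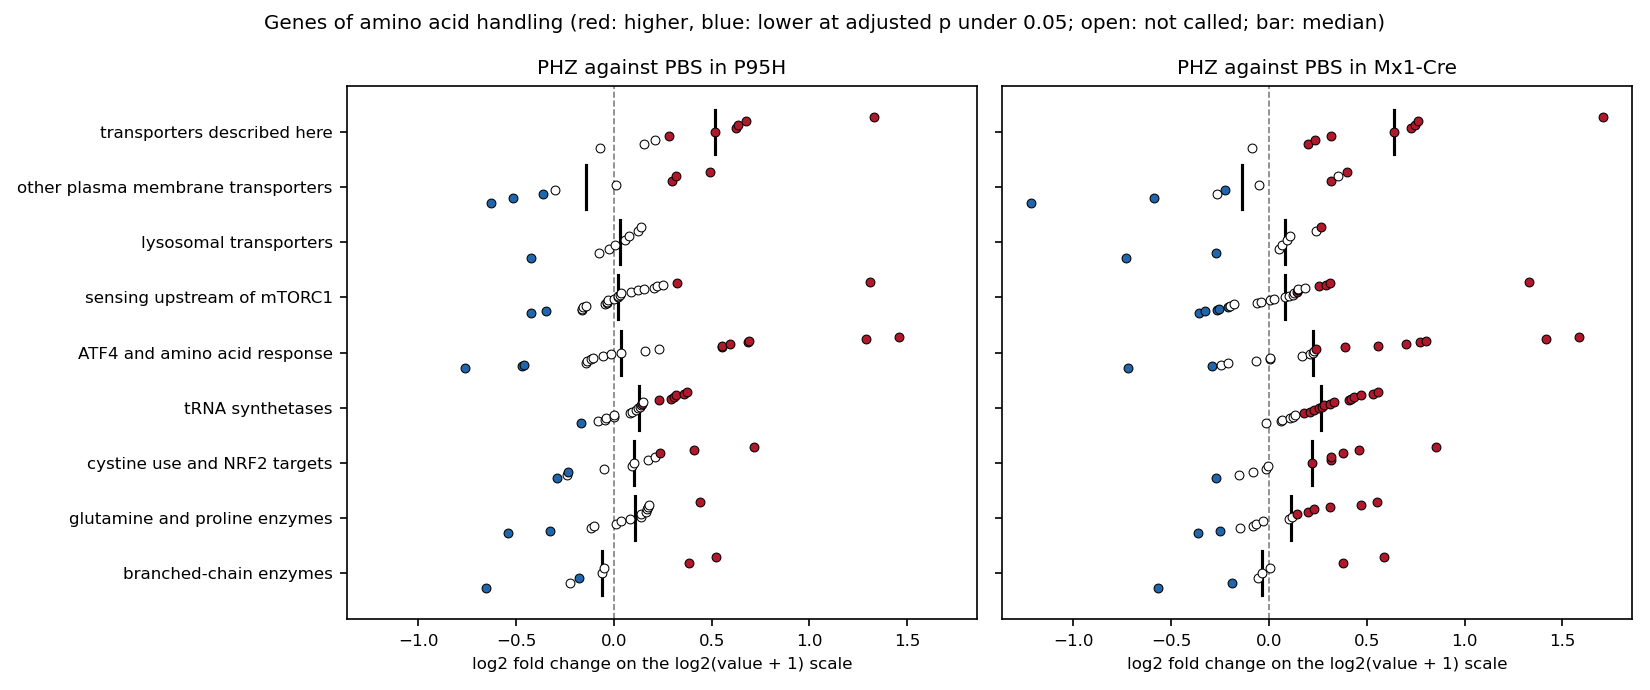
Log2 fold changes, PHZ against PBS, of the tested genes in each group of amino acid genes, in P95H (left) and Mx1-Cre (right); red points are higher and blue points lower at an adjusted p under 0.05, open points are not called, and bars are medians. The 9 tested transporters have medians of 0.52 and 0.64, the other plasma membrane transporters -0.14 and -0.14, and the tRNA synthetases 0.13 and 0.26.

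Of 23 tested genes that sense amino acids for mTORC1, 2 were higher and 2 lower in P95H, and 6 were higher and 5 lower in Mx1-Cre. For comparison, all tested genes gave 12.6% higher and 17.7% lower in P95H, and 17.0% higher and 14.9% lower in Mx1-Cre. Castor1, the arginine sensor, averaged 4.10 ± 0.259 in P95H PHZ and 1.08 ± 0.361 in P95H PBS, and 3.66 ± 0.474 in Mx1-Cre PHZ and 0.862 ± 0.283 in Mx1-Cre PBS, the largest change among the sensing genes. Sesn2, a leucine sensor and stress gene, fell by 0.42 in P95H (adjusted p = 9.90e-04) and by 0.25 in Mx1-Cre (adjusted p = 0.0315). Lamtor2, a subunit of the lysosomal anchor of mTORC1, fell by 0.35 and by 0.33. Of 8 lysosomal transporters tested, 0 were higher and 1 lower in P95H and 1 was higher and 2 lower in Mx1-Cre. The one called in both, Slc38a9, which reports lysosomal arginine to mTORC1, fell by 0.42 in P95H (adjusted p = 0.0369) and by 0.73 in Mx1-Cre (adjusted p = 0.00104). Slc36a4, among the 8, passed the filter mainly through PHZ libraries. With the authors' library factor divided out the sensing genes gave 6 higher and 2 lower in P95H and 7 higher and 3 lower in Mx1-Cre, and the lysosomal transporters 1 higher and 0 lower in P95H and 2 higher and 1 lower in Mx1-Cre.

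Atf4, the transcription factor of the amino acid response, and its textbook target Asns, which makes asparagine, were abundant and not called. Atf4 averaged 259 ± 22.1 in P95H PHZ and 271 ± 39.5 in P95H PBS (log2 fold change -0.06, adjusted p = 0.692), and 292 ± 22.2 in Mx1-Cre PHZ and 250.1 ± 30.9 in Mx1-Cre PBS (log2 fold change 0.23, adjusted p = 0.068). Asns had log2 fold changes of -0.12 (adjusted p = 0.146) in P95H and -0.07 (adjusted p = 0.422) in Mx1-Cre. Of 19 tested genes of this response, 7 rose and 3 fell in P95H around a median of 0.04, and 8 rose and 2 fell in Mx1-Cre around a median of 0.23. The shares over all tested genes were 12.6% higher and 17.7% lower in P95H, and 17.0% higher and 14.9% lower in Mx1-Cre. Trib3, among the 19, passed the filter through PHZ libraries only, and Cth and Nupr1 mainly through them. Their changes after PHZ are therefore partly set by the filter. Mthfd2 and Psat1, of mitochondrial folate metabolism and serine synthesis, rose by 1.29 and 0.69 in P95H and by 1.42 and 0.80 in Mx1-Cre. Nupr1, a stress-induced chromatin protein gene, rose by 1.46 in P95H and by 1.58 in Mx1-Cre. The genes on the lower side were named after their values were seen. Ddit4, an inhibitor of mTORC1, fell by 0.76 in P95H and by 0.72 in Mx1-Cre. Eif4ebp1, which restrains translation downstream of mTORC1, fell by 0.46 and by 0.29. Ddit3, a stress-induced transcription factor gene, fell by 0.47 in P95H (adjusted p = 9.36e-04) and was not called in Mx1-Cre (log2 fold change -0.24, adjusted p = 0.0594).

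The cytosolic tRNA synthetases, which load amino acids onto tRNA, had calls almost all on the higher side. All 20 were tested. In P95H 7 rose and 1 fell around a median log2 fold change of 0.13, and in Mx1-Cre 14 rose and 0 fell around a median of 0.26. All tested genes together gave 12.6% higher and 17.7% lower in P95H, and 17.0% higher and 14.9% lower in Mx1-Cre. With the authors' library factor divided out 13 and 17 of the 20 synthetases were higher and 0 lower, and with the granulocyte and monocyte marker mean in the fit 2 were higher in P95H and 16 in Mx1-Cre. The leucine enzyme gene Lars rose by 0.32 in P95H (adjusted p = 5.73e-04) and by 0.42 in Mx1-Cre (adjusted p = 3.77e-05), and the threonine enzyme gene Tars by 0.36 (adjusted p = 9.27e-04) and by 0.56 (adjusted p = 1.00e-05). Qars, for glutamine, fell in P95H (log2 fold change -0.17, adjusted p = 0.00623) and was at -0.01 in Mx1-Cre (adjusted p = 0.847).

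Among 11 tested genes of cystine use, glutathione synthesis and NRF2 targets, a list that includes Slc3a2, 3 were higher and 2 lower in P95H and 6 were higher and 1 lower in Mx1-Cre. Of all tested genes, 12.6% were higher and 17.7% lower in P95H, and 17.0% higher and 14.9% lower in Mx1-Cre. Gss, the last enzyme of glutathione synthesis, rose by 0.41 in P95H (adjusted p = 1.69e-05) and by 0.46 in Mx1-Cre (adjusted p = 5.58e-06). Txnrd1, a thioredoxin reductase, rose by 0.71 and 0.86, while Nqo1, a quinone reductase often used as an NRF2 target, fell by 0.29 in P95H and by 0.27 in Mx1-Cre. With the authors' library factor divided out the counts in P95H were 6 higher and 1 lower. Oat, which handles ornithine, fell by 0.33 in P95H (adjusted p = 1.11e-04) and by 0.25 in Mx1-Cre (adjusted p = 0.00161). Of 7 tested branched-chain enzymes, 2 were higher and 2 lower in each genotype: Dbt, a subunit of the oxidising complex, rose by 0.52 in P95H and 0.59 in Mx1-Cre, and Bckdha, another subunit of it, fell by 0.65 and by 0.57.

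Regulators known to act on these transporters did not move together: of 7 tested, 1 was higher and 1 lower in P95H and 1 was higher and 0 lower in Mx1-Cre. Shares over all tested genes were 12.6% higher and 17.7% lower in P95H, and 17.0% higher and 14.9% lower in Mx1-Cre. Myc, which is known to activate Slc7a5 and Slc1a5, was not called in P95H (log2 fold change -0.15, adjusted p = 0.414) or Mx1-Cre (-0.25, adjusted p = 0.141). Nfe2l2, which encodes NRF2, fell to 105 ± 8.55 in P95H PHZ, against 128 ± 4.85 in P95H PBS (a log2 change of -0.29 with SE 0.0568 and adjusted p = 6.71e-04), and was not called in Mx1-Cre, with 126 ± 4.52 after PHZ and 134 ± 9.33 after PBS (log2 fold change -0.09, adjusted p = 0.225). It was also lower in P95H PHZ than in Mx1-Cre PHZ (log2 fold change -0.26, adjusted p = 0.00864). Hif1a, of the hypoxia response, was not called in P95H (log2 fold change 0.20, adjusted p = 0.123) and rose in Mx1-Cre (log2 fold change 0.36, adjusted p = 0.00661). Nedd4, a ubiquitin ligase, rose in P95H (log2 fold change 0.22, adjusted p = 0.00131) and was not called in Mx1-Cre (log2 fold change 0.11, adjusted p = 0.0726).

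Some of the transporters also varied together among mice of a group. After the group means were taken out, the Pearson correlation over the 20 libraries ran from -0.110 to 0.901 over the 36 pairs of tested transporters, with a median of 0.451, and it was over 0.5 for 15 pairs. It was 0.901 between Slc7a5 and Slc3a2, 0.831 between Slc7a5 and Slc1a4 and 0.790 between Slc7a1 and Slc38a1, but 0.0996 between Slc3a2 and Slc38a2, 0.124 between Slc7a6 and Slc38a2 and 0.0795 between Slc7a5 and Slc43a1. Libraries share depth and scaling, so these values are descriptions. The share of pairs over 0.5 among all tested genes was not computed, so the count of 15 is not set against a background. Mx1-Cre PBS replicate 4 lay below its group mean for 9 of 9 tested transporters, by a median of 0.28 on the log2 scale, while the median of all tested genes in it deviated by -0.0047. P95H PHZ replicate 5 lay below its group mean for 7 of 9, by a median of 0.26. Other libraries were below for as many at smaller median deviations: P95H PBS replicate 5 for 9 of 9 (-0.073) and P95H PBS replicate 2 for 7 of 9 (-0.133). Mx1-Cre PHZ replicate 4 was below for 8 of 9 (-0.074). Without Mx1-Cre PBS replicate 4, 5 transporters were called in Mx1-Cre. Over all tested genes, the patterns most like Slc7a5 across the 20 libraries were those of Ptdss1, Elovl1 and Tmem248 (r = 0.991, 0.971 and 0.968 on log2 values, and 0.960, 0.906 and 0.892 after group means were taken out). For Slc3a2 they were Rpn1, Atad1 and Jagn1 (0.967, 0.948 and 0.944, and 0.943, 0.904 and 0.914). On log2 values Slc3a2 ranked 277 among all tested genes in likeness to Slc7a5, and Slc7a5 ranked 55 in likeness to Slc3a2. The values before removal of group means carry the difference between PHZ and PBS libraries.

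**Figure D5:**
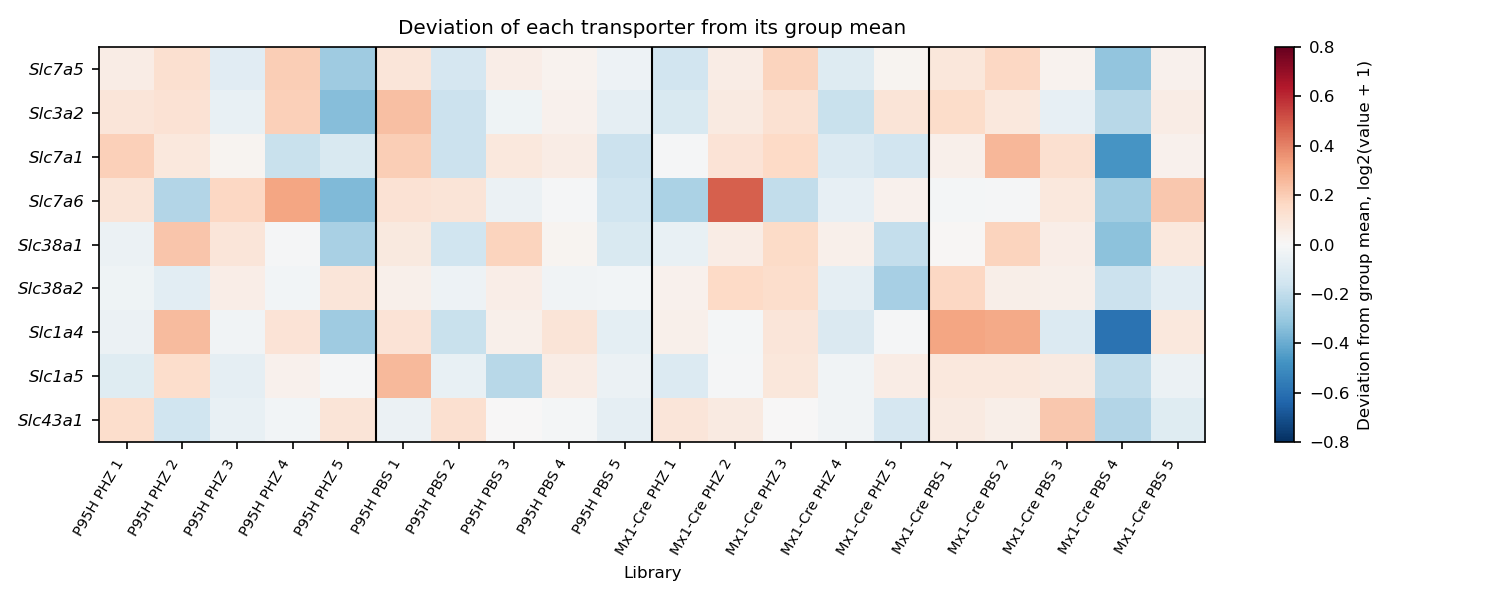
Deviation of each tested transporter from its group mean, in log2(value + 1), for the 20 libraries (columns, in groups of 5 divided by lines); red is above and blue below the mean. Mx1-Cre PBS 4 and P95H PBS 5 are blue in 9 of 9 rows, Mx1-Cre PHZ 4 in 8 of 9, and P95H PHZ 5 and P95H PBS 2 in 7 of 9.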

How the data were processed

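RNA of sorted CFU-E was sequenced in 150-base paired reads, per the labels' protocols. Per the submitters' processing notes, the genome builds mm10, GRCm38, hg19 and GRCh37 appear beside TopHat2 2.0.8b, TopHat, RSEM 1.2.4 and Bowtie, and no role is stated for any. The authors deposited 1 table of normalised signal per gene. Divided by 1 factor per library (0.940 to 1.10), 100% of its values were whole multiples of 2-decimal steps within a tolerance of 0.01, the form of rounded TPM, and sums per library ran from 924763 to 1085047. The factor differed with treatment: it lay between 0.9401 and 0.9835 in P95H PHZ and between 0.9837 and 1.096 in P95H PBS. In Mx1-Cre it lay between 0.964 and 1.043 after PHZ and between 1.006 and 1.079 after PBS. How the factor was made, and the counting settings, are not given in the sources used here. With no read counts in the table, depth is unknown and no interval that needs depth is given. Between 10364 and 10755 entries per library reached 1, and 0 pairs of libraries were identical.

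Symbols were taken from GENCODE vM21, which named 35986 of 37748 entries. Values were analysed as log2(value + 1). Group means were fitted to all 20 libraries by limma 3.58.1 (R 4.3.3) with trended, robust moderation, two-sided, with Benjamini-Hochberg adjustment over 10890 genes, a threshold of 0.05 and 5 contrasts. The fit was tested on simulated data. The 10 genes, the pathway and marker lists and the motifs were chosen with earlier results of these data known. Named genes are the 10 transporters, Srsf2, a fixed set of 10 related genes, and called genes of each list by smallest p, up to 4 per list and contrast; the few outside this rule are said to be chosen after their values were seen. Alternatives were TMM scaling (coded from its definition), quantile normalization, the authors' factor divided out, pseudocounts of 0.1 and 5, a filter at 5 and none, library weights, no trend or robust moderation, fits of only the groups compared, a block for the replicate number, a covariate from the mean of 18 granulocyte and monocyte markers, and fits without single libraries or pairs of them. A covariate for Xist, above 10 in 10 libraries and in 2 or 3 of each group, was added after the data were seen. The counts of 1 gene list are not reported here. Figures were drawn with Python 3.11.15 and matplotlib 3.10.9.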

Additional observations from a re-analysis of the deposited data

Results flagged for a closer look

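In the P95H PHZ group, Slc7a11 was 0.462 in replicate 4, against 0.132 to 0.198 in the other 4 libraries, a gap that is large for a group of 5. The value is still below 1, where the cystine exchanger light chain was not tested. The 10 transporters and the ratio of Slc7a5 to Slc3a2 gave 44 groups of 5 values, of which 1 stood out, and chance alone gives about 1 in 20.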

How the results depend on the processing

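Over the 9 tested transporters and the 5 comparisons, 615 values under alternatives other than leaving out 1 library gave 600 on the same side of the threshold, 10 calls lost, 5 gained and 0 called values reversed; of 900 values without 1 library, 890 stayed on their side, 8 calls were lost, 2 gained and 0 reversed. The calls of Slc7a5, Slc7a1 and Slc38a1 were kept in both genotypes under every alternative run, and that of Slc1a4 in Mx1-Cre; those of Slc7a6 were kept wherever it was tested, which it was not with the filter at 5. In P95H some were kept narrowly: the highest adjusted p in limma was 0.0444 for Slc7a5, 0.0344 for Slc7a1 and 0.0212 for Slc38a1. In Mx1-Cre these were 3.57e-04, 6.48e-04 and 1.42e-04. With the granulocyte and monocyte marker mean as a covariate, 4 transporters were called in P95H and 5 in Mx1-Cre, and the genes called after PHZ in P95H numbered 1008, against 3294 without it. That count was 2089 without P95H PBS replicates 4 and 5, while 6 transporters were still called. For P95H against Mx1-Cre under PHZ, 596 genes were called, against 278 after division by the authors' factor, 338 from the compared groups alone, 292 under quantile normalization and 342 under TMM scaling. Under PBS 161 genes were called, against 78 with the compared groups alone, 538 with library weights and 97 without P95H PBS replicates 4 and 5; with library weights 1 transporter, Slc1a5, was called. The difference of PHZ effects called 1 gene with no filter on low values. Without 1 library at a time, the genes called ranged from 2686 to 3479 for PHZ in P95H, 2596 to 3586 for PHZ in Mx1-Cre, 319 to 697 for P95H under PHZ and 90 to 180 for P95H under PBS, with 0 to 0 for the difference; the transporters called ranged from 6 to 7, 5 to 8, 0 to 0, 0 to 0 and 0 to 0. Single libraries that moved a count by over 1.5 times were Mx1-Cre PHZ replicate 3 (319) and P95H PHZ replicate 3 (331) for P95H under PHZ, Mx1-Cre PBS replicates 1 (92) and 3 (93) and P95H PBS replicate 5 (90) for P95H under PBS, and Mx1-Cre PBS replicate 4 (5 transporters) for PHZ in Mx1-Cre. The causes were not tested. Replicate numbers do not pair the libraries: over 30 same-numbered pairs the correlation of deviations ran from -0.306 to 0.441, 13 were over 0.1, and 4 of 20 libraries correlated best with their own number. With the replicate number as a block, 6 and 8 transporters were called after PHZ in P95H and Mx1-Cre and 0 in the other comparisons, and the genes called numbered 3356, 3579, 617, 189 and 0. The labels give only a minimum depth per sample, so the number of reads behind low values such as those of Slc7a11 and Slc7a6 is unknown.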
